A study of Homo sapiens with 6 samples.

Results

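A set of 10 genes of the WNT signalling system was followed in NCI-H1299, an established line from a lung tumour, given as LUAD (lung adenocarcinoma) in the sample labels, with and without a knockout of IGF2BP3, a protein that binds messenger RNA. They were taken from the deposited table by gene symbol and comprise 3 ligands (WNT5A, WNT5B and WNT7B), 2 frizzled receptors (FZD7 and FZD8), the R-spondin receptor LGR4, 2 dickkopf proteins (DKK1 and DKK3), and AXIN2 and LEF1, which are nuclear targets or effectors of beta-catenin. All 10 symbols had a row among the 35784 rows of the table, and 9 of them passed the filter on low counts together with 20134 genes in all. Total RNA of 6 libraries was sequenced, 3 from cells with the genotype control (titled KO-NC) and 3 from cells with the genotype IGF2BP3 knockout. The labels describe lentiviral CRISPR with a pair of guide RNAs against IGF2BP3, puromycin selection, and expansion of colonies from single cells. They do not say how many colonies the 3 knockout libraries came from, what construct the controls carried, or whether the libraries of a group came from separate cultures, so the p-values rest on a spread among libraries that may be technical or clonal. Both groups share the parental line and the culture medium.

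WNT proteins are secreted, lipid-modified ligands that bind frizzled receptors. Together with the co-receptors LRP5 and LRP6 they stop the AXIN and APC destruction complex from degrading beta-catenin, which then acts with TCF/LEF factors on target genes. Other WNT proteins, WNT5A foremost, act mainly through frizzled and ROR receptors on cell polarity, movement and calcium release without beta-catenin. R-spondins and their LGR receptors protect frizzled proteins from the ubiquitin ligases RNF43 and ZNRF3, and DKK1 blocks LRP5 and LRP6. In the lung these signals shape branching and alveolar repair.

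The bases just before the annotated start are shown for the called genes WNT5A, FZD8 and LGR4 and, for contrast, for DKK1, which was not called. They come from RefSeq (GRCh38.p14), in which 6 of the 10 genes had an entry, and each is the 250 bases upstream of a start, read 5′ to 3′ on the gene's strand. Capitals mark CTTTGA, a core of the TCF/LEF site, and GGGCGG, the GC box, each searched on both strands.
WNT5A, chr3:55481399-55481648, minus strand: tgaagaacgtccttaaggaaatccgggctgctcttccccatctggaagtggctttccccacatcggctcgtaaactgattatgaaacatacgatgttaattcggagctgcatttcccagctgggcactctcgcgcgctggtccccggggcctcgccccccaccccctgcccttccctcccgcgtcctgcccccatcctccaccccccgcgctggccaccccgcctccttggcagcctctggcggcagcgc
FZD8, chr10:35642297-35642546, minus strand: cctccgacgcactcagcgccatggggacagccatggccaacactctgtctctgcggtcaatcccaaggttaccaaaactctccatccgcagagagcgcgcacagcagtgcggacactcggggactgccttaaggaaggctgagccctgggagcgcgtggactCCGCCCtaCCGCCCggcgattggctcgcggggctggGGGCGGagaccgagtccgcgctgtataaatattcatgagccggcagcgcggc
DKK1, chr10:52314031-52314280, plus strand: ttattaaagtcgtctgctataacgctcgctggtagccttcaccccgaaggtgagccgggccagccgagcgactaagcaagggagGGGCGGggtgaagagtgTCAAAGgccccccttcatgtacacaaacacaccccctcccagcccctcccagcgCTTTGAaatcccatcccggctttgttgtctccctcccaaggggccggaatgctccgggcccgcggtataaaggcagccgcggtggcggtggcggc
LGR4, chr11:27472791-27473040, minus strand: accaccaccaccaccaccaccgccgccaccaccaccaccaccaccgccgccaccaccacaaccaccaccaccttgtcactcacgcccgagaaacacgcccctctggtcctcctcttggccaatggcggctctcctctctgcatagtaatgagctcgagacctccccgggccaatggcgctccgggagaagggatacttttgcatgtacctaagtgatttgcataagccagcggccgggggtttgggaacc
The WNT5A window belongs to the inner of the gene's annotated starts in that table and lies within a longer WNT5A transcript but in no exon. The DKK1 window overlaps an exon of the antisense gene PRKG1-AS1, and the LGR4 window an exon of AC100771.2. DKK1 alone of the 4 held the TCF/LEF letters, in 2 places that begin 149 and 95 bases upstream of the start. Those letters occurred in 11.2% of the 35116 windows of the same length in the table. FZD8 held 3 GC boxes and DKK1 held 1, a motif found in 42.6% of all windows. The GC content was 64.4% for WNT5A, 65.2% for FZD8, 62.8% for DKK1 and 62.0% for LGR4, beside a median of 58.0% over all windows. These matches describe the letters in these windows and are not measured binding sites.

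The libraries held 67674223 to 80810319 counts. Levels are given per library as TMM-scaled CPM (counts per unit of library size), and 3 counts corresponded to 0.0389 to 0.0435 CPM. A gene was called when its edgeR quasi-likelihood p-value, adjusted by Benjamini-Hochberg over all tested genes, was below 0.05. IGF2BP3 itself (ENSG00000136231) measured 58.8, 51.6 and 54.1 CPM in the controls and 39.9, 25.04 and 22.6 CPM in the knockouts, which left 53.2% of its message (log2 fold change -0.91, SE 0.20, adjusted p = 0.017). Leaving out a library raised that adjusted p to as much as 0.067, and the knockout of the protein rests on a western blot that the labels mention. Control replicate 3 and knockout replicate 1 stood apart from the other libraries of their groups, and the calls were recomputed without them. The lung lineage markers NKX2-1 and NAPSA were low (0.0150 and 0.407 FPKM in controls, a value scaled for gene length and library size). FOXA1, FOXA2 and MUC1 of the same list stood at 5.58, 4.89 and 2.45 FPKM in controls, and KRT7 was high, at 431 FPKM. MUC1 and NAPSA were called lower in the knockouts (adjusted p = 0.0024 and 0.040), beside 11.5% of all tested genes called lower. The other 4 tested markers of this list were not called. Of the 11 lung lineage markers with a row, 6 had a mean below 0.1 FPKM over the 6 libraries. The summed level of the 7 simple-epithelium markers was 1560 to 1698 FPKM in controls and 885 to 891 in knockouts, with CDH1, KRT8 and KRT18 among those called lower. Fibroblast and endothelial markers were low: the 8 fibroblast markers summed to 1.46 to 1.80 FPKM over the 6 libraries and the 5 endothelial markers to at most 0.155. The 6 leukocyte markers summed to 17.3 to 21.7 FPKM in controls and 9.32 to 11.5 in knockouts, most of it CD68 and CD14, and CD3E was listed at 0 throughout. CD68 and CD14 were called lower, whereas ITGAM and LYZ had log2 fold changes of 0.48 and 0.47 and were not called. The 5 neuroendocrine markers summed to 0.288 to 0.305 FPKM in controls and 0.731 to 1.19 in knockouts, where SYP was called higher (log2 fold change 2.41, adjusted p = 0.00091). The part of these lists in the results was not tested.

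Of the 9 tested genes, 4 were called: FZD8 was higher in the knockout, and WNT5A, DKK3 and LGR4 were lower. WNT5B, WNT7B, FZD7, DKK1 and AXIN2 were not called, and LEF1 was too scarce to test. Over all tested genes, 19.7% were called in either direction, 8.21% higher and 11.5% lower. The control and knockout ranges were apart for the same 4 of 9 genes, beside 41.3% of all tested genes. The median log2 fold change of the 9 was -0.05, against 0.01 for all tested genes. All 4 calls held in each of the 6 fits that left out 1 library. Without knockout replicate 1 there were 5 calls, and without it and control replicate 3 there were 6.

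**Figure D1:**
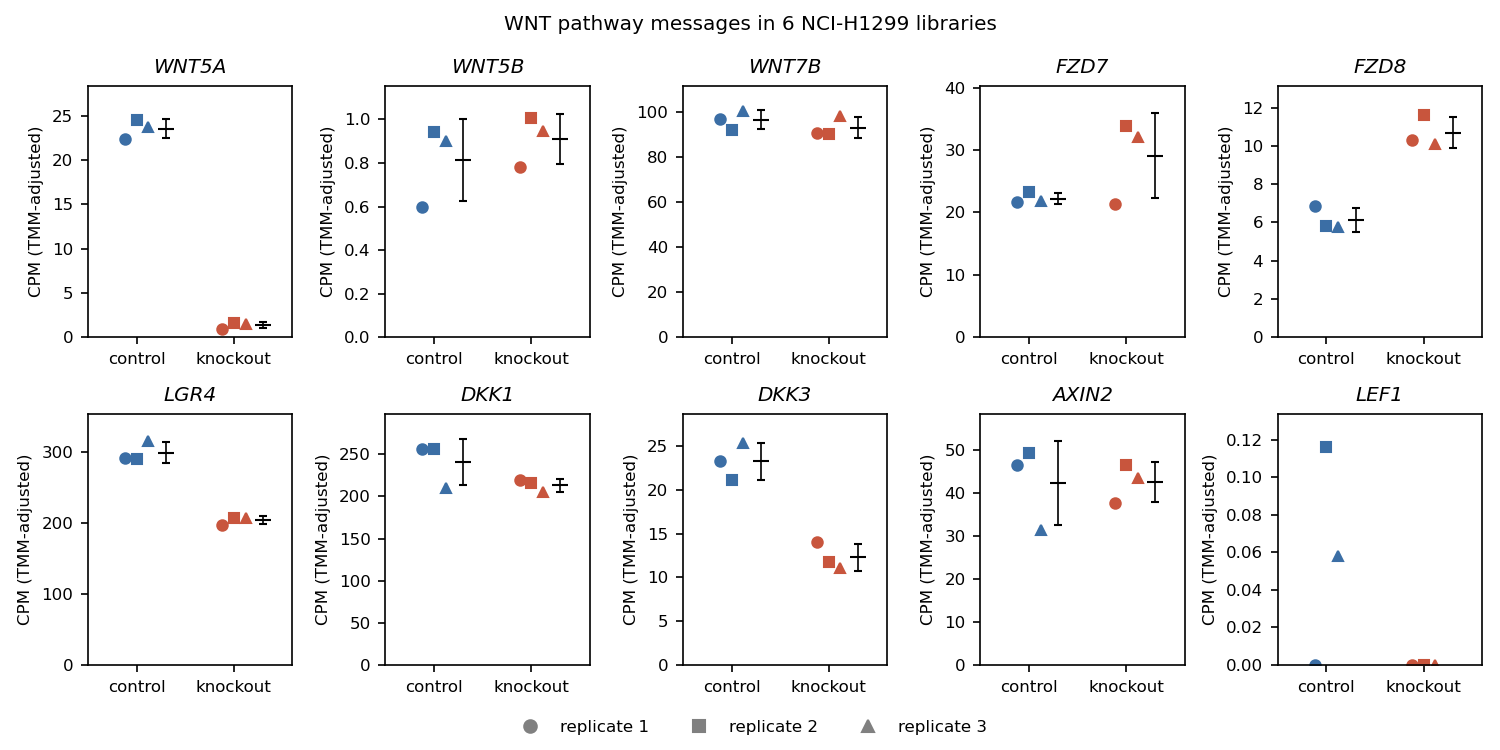
Level of each of the 10 genes in TMM-scaled CPM (vertical axes, each from 0), for 3 control and 3 knockout libraries. Points are libraries, with 1 marker shape per replicate, and the bars are the mean and SD (not drawn for LEF1). WNT5A, DKK3, LGR4 and FZD8 have control and knockout ranges that do not overlap.

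WNT5A (ENSG00000114251, chr3:55465715-55489945, minus strand, GRCh38 as in the table) was the abundant ligand that fell. It measured 22.4, 24.5 and 23.7 CPM in the controls and 0.964, 1.54 and 1.52 CPM in the knockouts. Every knockout library lay far below every control library, and the message was reduced to 5.70% of control. The log2 fold change was -4.13 (SE 0.20, adjusted p = 2.4e-05), the 116th most negative among the 20134 tested genes. The deposited counts behind it were 1689, 1691 and 1635 in controls and 74, 109 and 117 in knockouts, so the low level was still well counted. In RNA from whole cultures, fewer cells with the message and less message per cell cannot be told apart. WNT5A-AS1, an antisense gene that overlaps it, held 128 counts over all libraries against 5315 for WNT5A and was also lower (log2 fold change -3.27, adjusted p = 0.044). Without stated strand use the reads of these 2 genes cannot be told apart. Among the 50 tested genes nearest to WNT5A on chromosome 3 the median log2 fold change was 0.02. Of these neighbours 2 were called higher and 6 lower, beside 8.21% and 11.5% of all tested genes.

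WNT5B (ENSG00000111186, chr12:1529891-1647212, plus strand), the closest relative of WNT5A, was near the bottom of the range in both groups. Its levels were 0.597, 0.942 and 0.899 CPM in controls and 0.782, 1.01 and 0.946 CPM in knockouts. The groups overlapped and the difference was within the spread (log2 fold change 0.17, SE 0.32, adjusted p = 0.77). It shares sequence on the other strand with FBXL14, which held 5643 counts against its 376, so part of this small value may belong to FBXL14.

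WNT7B (ENSG00000188064, chr22:45920366-45977162, minus strand), a ligand of the developing lung epithelium, was the most abundant WNT message. It stood at 97.3, 92.2 and 101 CPM in controls and 90.9, 90.2 and 98.6 CPM in knockouts. The ranges overlapped and the gene was not called (log2 fold change -0.05, SE 0.07, adjusted p = 0.67).

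On the FPKM scale, which allows levels of different genes to be set side by side, the makeup of the WNT message pool shifted. WNT5A was 10.97%, 12.4% and 11.3% of the summed FPKM of the 16 WNT ligand genes in the controls and 0.545%, 0.893% and 0.810% in the knockouts. WNT7B made up 66.9% ± 1.05 (SD, n = 3) in controls and 74.2% ± 0.489 (SD, n = 3) in knockouts. Both shares separated the groups completely, and the 2-sided exact permutation p was 0.1 for each, the smallest that 3 against 3 libraries can give. The 2 shares are parts of the same sum and are not independent results. WNT7B itself had 17.9 FPKM in controls and 17.7 in knockouts. Taken from counts in place of FPKM, the WNT5A share fell by 15.2 percentage points rather than 10.8, and the WNT7B share rose by 11.6 rather than 7.30. WNT5B remained a minor part, 0.659% ± 0.165 in controls and 0.854% ± 0.127 in knockouts (SD, n = 3, exact permutation p = 0.2). The log2 ratio of WNT5A to WNT5B within a library was 4.54, 3.98 and 3.98 in controls and -0.42, -0.14 and -0.06 in knockouts (exact permutation p = 0.1). Taken from counts, the ratio stayed above 0 in the knockouts (0.30, 0.62 and 0.68), so which of these 2 lay higher there depends on the scaling for length. The summed WNT signal was 26.8 ± 0.706 FPKM in controls and 23.8 ± 1.82 in knockouts (SD, n = 3).

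**Figure D2:**
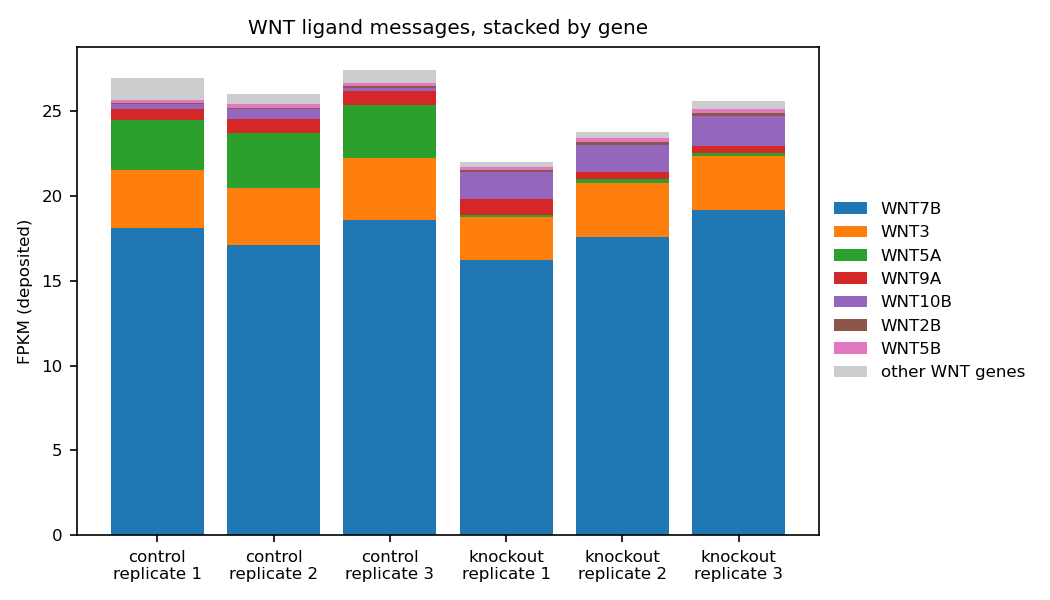
Deposited FPKM of the WNT ligand genes stacked by gene for each of the 6 libraries (vertical axis from 0). WNT7B fills most of each bar, and the WNT5A segment, 11.6% of the controls' sum on average, is barely visible in the knockouts at 0.749%.

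Other WNT ligands were mostly faint. Of 7 further ligands that passed the filter, 2 were called higher (WNT10B and WNT2B), 2 lower (WNT6 and WNT4) and 3 were not called, and their median log2 fold change was -0.28, beside 8.21% of all tested genes called higher and 11.5% lower. Without knockout replicate 1, WNT9A was also called lower (log2 fold change -0.89, adjusted p = 0.027). WNT10B, a ligand that acts through beta-catenin, measured 0.836, 1.62 and 0.536 CPM in controls and 4.65, 4.15 and 4.68 CPM in knockouts (log2 fold change 2.17, SE 0.39, adjusted p = 0.0073). It was the only one of these 4 ligand calls that held in each fit leaving out 1 library. WNT2B rose from 0.938 to 2.07 CPM, WNT6 fell from 1.07 to 0.223 CPM and WNT4 from 0.716 to 0.229 CPM, with adjusted p of 0.031, 0.029 and 0.045. Leaving out 1 library raised these to as much as 0.11, 0.12 and 0.18. By FPKM, WNT3 was the next most abundant ligand after WNT7B in both groups (3.49 in controls, where WNT5A had 3.10). In CPM, WNT5A lay above WNT3 in controls (23.5). WNT3 had 15.8 ± 0.793 CPM in controls and 13.1 ± 1.15 in knockouts (SD, n = 3) and was not called (adjusted p = 0.14). By edgeR with the reported settings none of the 5 tested genes of ligand maturation and release was called, with 2 at an unadjusted p below 0.05. PORCN, the acyltransferase that attaches the lipid, came nearest (log2 fold change 0.36, adjusted p = 0.071). With a filter of a mean count of at least 100, edgeR called PORCN higher (adjusted p = 0.048). It was also called by DESeq2 (adjusted p = 0.030), with quantile normalization and from FPKM. On simulated counts 19.7% of DESeq2 calls were false, against 3.95% for edgeR. TRABD2A was called lower with control replicate 3 and knockout replicate 1 both left out (adjusted p = 0.031). WLS, the carrier of WNT proteins to the surface, had an adjusted p of 0.66.

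FZD8 (ENSG00000177283, chr10:35638247-35642296, minus strand), a receptor for beta-catenin-type WNT signals, was the only one of the 10 genes called higher. It measured 6.87, 5.81 and 5.74 CPM in controls and 10.3, 11.6 and 10.1 CPM in knockouts. The lowest knockout exceeded the highest control, and the mean was 174% of control (log2 fold change 0.80, SE 0.14, adjusted p = 0.0077). A test against a minimum change of 1.5-fold did not call it (adjusted p = 0.29).

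FZD7 (ENSG00000155760, chr2:202033855-202038441, plus strand), a receptor widely expressed in epithelial cancers, was uneven among the knockouts. It stood at 21.6, 23.3 and 21.8 CPM in controls and 21.3, 33.8 and 32.2 CPM in knockouts. Knockout replicate 1 lay at the control level and the other 2 knockouts above all controls. With all 6 libraries the gene was not called (log2 fold change 0.39, SE 0.17, adjusted p = 0.15). Without knockout replicate 1 it was called (log2 fold change 0.57, adjusted p = 0.0018), and with control replicate 3 also left out it was 0.56 (adjusted p = 0.0012).

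The summed message of the 10 frizzled genes was 41.2 ± 1.00 FPKM in controls and 41.2 ± 4.39 in knockouts (SD, n = 3), and single receptors were called in both directions. Of 13 further receptors and co-receptors tested, 3 were called higher (FZD3, FZD9 and ROR1) and 2 lower (FZD6 and FZD4). These stand beside 8.21% and 11.5% of all tested genes, and the median log2 fold change of the 13 was 0.07. Without knockout replicate 1, 6 were called higher, with LRP6, LRP5 and ROR2 added, and without control replicate 2 none was called lower. FZD3, a receptor of the polarity branch, rose from 15.7 ± 0.497 to 22.5 ± 0.633 CPM (SD, n = 3, adjusted p = 0.0068). ROR1, a receptor for WNT5A, rose from 19.6 ± 2.26 to 28.9 ± 0.760 CPM (SD, n = 3, adjusted p = 0.0089). FZD9 rose from 0.881 to 2.11 CPM (adjusted p = 0.018). FZD6 fell from 62.9 to 46.7 CPM (adjusted p = 0.0095) and FZD4 from 14.1 to 9.27 CPM (adjusted p = 0.014). The FZD3 and ROR1 calls held in each fit leaving out 1 library, whereas the adjusted p of FZD6, FZD4 and FZD9 reached 0.051, 0.070 and 0.072. FZD2, at 14.0 FPKM in controls, and the co-receptors LRP5 and LRP6, at 32.5 and 12.6 FPKM, were not called (adjusted p = 0.97, 0.85 and 0.084).

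**Figure D3:**
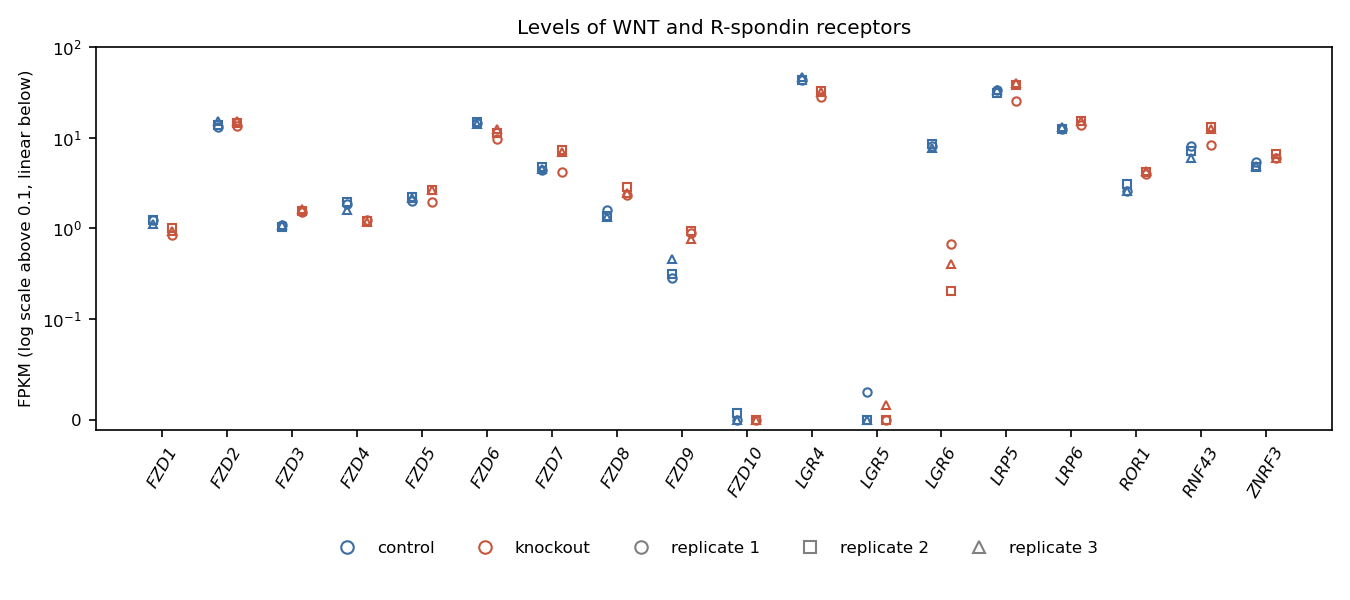
Deposited FPKM of the frizzled, LRP and LGR receptor genes and of ROR1, RNF43 and ZNRF3 in each library. The axis is log above 0.1 and linear below, with colour for group and marker shape for replicate. LGR6 falls from 8.09 to 0.425 FPKM on average and LGR4 from 44.4 to 30.9, and FZD8 lies higher in all 3 knockouts.

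LGR4 (ENSG00000205213, chr11:27365961-27472790, minus strand) was the main R-spondin receptor of these cells. It measured 292, 290 and 316 CPM in controls and 197, 207 and 207 CPM in knockouts. The groups were well apart and the mean was 68.1% of control (log2 fold change -0.55, SE 0.07, adjusted p = 0.0020). A test against a minimum change of 1.5-fold gave an adjusted p of 1.

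LGR6, a related R-spondin receptor, was called lower as well. It measured 39.8, 42.2 and 38.7 CPM in controls and 3.504, 1.01 and 1.92 CPM in knockouts, which was 5.32% of control (log2 fold change -4.23, SE 0.39, adjusted p = 4e-04). LGR5, the third receptor of this kind, had at most 0.159 CPM in any library. The 3 LGR genes together summed to 52.5 ± 1.68 FPKM in controls and 31.3 ± 2.15 in knockouts (SD, n = 3). The ubiquitin ligases that LGR receptors restrain were called higher: RNF43 rose from 47.3 to 73.8 CPM (adjusted p = 0.030) and ZNRF3 from 37.1 to 45.4 CPM (adjusted p = 0.048). Both calls were lost when 1 library was left out, with adjusted p up to 0.10 and 0.16. RSPO3, the ligand of LGR4, was 41.7, 44.9 and 43.3 CPM in controls and 47.6, 24.7 and 27.3 CPM in knockouts (adjusted p = 0.29), with knockout replicate 1 again apart from the other 2. Without knockout replicate 1, RSPO3 was called lower (log2 fold change -0.73, adjusted p = 0.00073), and so was RSPO1, which was below the filter with all libraries. Of the 4 tested genes of this module other than LGR4, 2 were called higher and 1 lower with all libraries. These stand beside 8.21% and 11.5% of all tested genes, and the median of the 4 was -0.05. Without knockout replicate 1, where RSPO1 was tested as well, there were 1 higher and 3 lower. Whichever single library was left out, at most 1 gene was called higher, and 1 to 3 were called lower.

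DKK1 (ENSG00000107984, chr10:52314281-52317657, plus strand), a secreted antagonist and itself a target of beta-catenin, was the most abundant of the 10 messages at 102 ± 11.8 FPKM in controls (SD, n = 3). It measured 257, 256 and 209 CPM in controls and 220, 216 and 205 CPM in knockouts. Control replicate 3 lay within the knockout range, and the gene was not called (log2 fold change -0.17, SE 0.10, adjusted p = 0.26). With control replicate 3 and knockout replicate 1 both left out, the log2 fold change was -0.28 and the gene was called (adjusted p = 0.0019).

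DKK3 (ENSG00000050165, chr11:11956207-12009769, minus strand), a divergent dickkopf protein often silenced in tumours, fell. It measured 23.3, 21.1 and 25.4 CPM in controls and 14.1, 11.7 and 11.1 CPM in knockouts. The ranges did not overlap and the mean was 52.8% of control (log2 fold change -0.92, SE 0.13, adjusted p = 0.0026). A test against a minimum change of 1.5-fold gave an adjusted p of 0.072. USP47 overlaps it on the other strand with 41268 counts against 7726 for DKK3, and had a log2 fold change of -0.13 (adjusted p = 0.34). Of the 5 other antagonist genes tested, KREMEN2, a DKK1 receptor, was called higher (0.425 to 1.02 CPM, adjusted p = 0.037, up to 0.11 without 1 library). The other 4, SFRP1 among them (10.4 and 10.2 CPM), were not called, beside 19.7% of all tested genes called in either direction. The median of the 5 was 0.24. With control replicate 3 and knockout replicate 1 both left out, SFRP1 was called lower (adjusted p = 0.028) and KREMEN1 higher (adjusted p = 0.011).

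AXIN2 (ENSG00000168646, chr17:65528563-65561648, minus strand), a scaffold of the destruction complex and the target gene most often read as a gauge of beta-catenin activity, measured 46.4, 49.3 and 31.2 CPM in controls and 37.5, 46.5 and 43.5 CPM in knockouts. The controls enclosed the knockouts on both sides. The log2 fold change was 0.01 (SE 0.17, adjusted p = 0.99) and ranged from -0.17 without control replicate 3 to 0.14 without control replicate 2, with no call in any fit. The 50 tested genes nearest to AXIN2 had a median log2 fold change of 0.35, the highest such median of the 10 genes. Among these neighbours 16 were called higher and 2 lower, beside 8.21% and 11.5% of all tested genes. For the 20 nearest the median was 0.22, with 6 called higher and 1 lower. LEF1 (ENSG00000138795, chr4:108047545-108168956, minus strand), a DNA-binding partner of beta-catenin, had 0, 8 and 4 counts in controls and 0, 0 and 0 in knockouts. It was below the filter, and a change was not detectable at this depth.

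Between the receptor and the nucleus, 16 genes of the dishevelled and destruction complex list other than AXIN2 were tested. By edgeR none was called higher (2 at an unadjusted p below 0.05, 1 called by DESeq2) and 3 were called lower, with a median of -0.09, beside 8.21% and 11.5% of all tested genes. The lower calls numbered 1 to 3 when 1 library was left out, and with control replicate 3 and knockout replicate 1 both left out there were 3 higher and 5 lower. AXIN1, the constitutive scaffold, measured 40.2, 44.2 and 49.8 CPM in controls and 32.0, 26.8 and 25.9 CPM in knockouts (log2 fold change -0.66, SE 0.12, adjusted p = 0.0068), a call that held in each fit leaving out 1 library. GSK3B, a kinase of the complex, fell from 116 to 91.4 CPM and TNKS, a tankyrase that destabilises AXIN proteins, from 87.6 to 70.8 CPM (adjusted p = 0.018 for each). Without 1 library these adjusted p rose to at most 0.076 and 0.074. CTNNB1, the gene of beta-catenin, had 279 ± 15 CPM in controls and 284 ± 21.5 in knockouts (SD, n = 3, adjusted p = 0.89). Among 12 TCF/LEF factors and nuclear cofactors tested, the corepressor gene TLE3 (25.2 to 38.4 CPM, adjusted p = 0.0074) and BCL9 (21.4 to 30.1 CPM, adjusted p = 0.019) were called higher. TLE4 (23.2 to 17.3 CPM, adjusted p = 0.022) and BCL9L (355 to 287 CPM, adjusted p = 0.026) were called lower, and the median was 0.13. These 4 of 12 stand beside 19.7% of all tested genes. Only the TLE3 call of these 4 held in each fit leaving out 1 library.

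Of 13 listed beta-catenin target genes tested besides the 10, 7 were called higher and 1 lower, with a median log2 fold change of 0.63, beside 8.21% of all tested genes called higher and 11.5% lower. The higher calls numbered 7 without knockout replicate 1 and 1 or 2 without any other library, and NKD1 was added and CD44 called lower without knockout replicate 1. Called higher were CCND1, which encodes cyclin D1 (281 ± 22.0 to 434 ± 50.2 CPM, SD, n = 3, log2 fold change 0.63, adjusted p = 0.0061), TNFRSF19 (2.85 to 8.52 CPM, adjusted p = 0.018) and NKD2, an inhibitor of dishevelled (3.99 to 11.6 CPM, adjusted p = 0.020). RNF43 and ZNRF3, described above, stand in this list too and are among the 7. The rest of the 7 were BMP4 (21.3 to 34.8 CPM, adjusted p = 0.048) and SP8. SP8 was faint, with 6, 2 and 9 counts in controls and 17, 36 and 42 in knockouts. Without 1 library the adjusted p of BMP4 and of SP8 reached 0.16. MMP7, a secreted protease, was the one called lower (141 ± 3.27 to 103 ± 9.19 CPM, SD, n = 3, log2 fold change -0.46, adjusted p = 0.0076). CCND1 and MMP7 were the 2 of these 8 calls that held in each fit leaving out 1 library. MYC, another textbook target, had 140 and 148 CPM (adjusted p = 0.71). These genes answer to many inputs besides beta-catenin, and the list was assembled with earlier results of these libraries known.

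**Figure D4:**
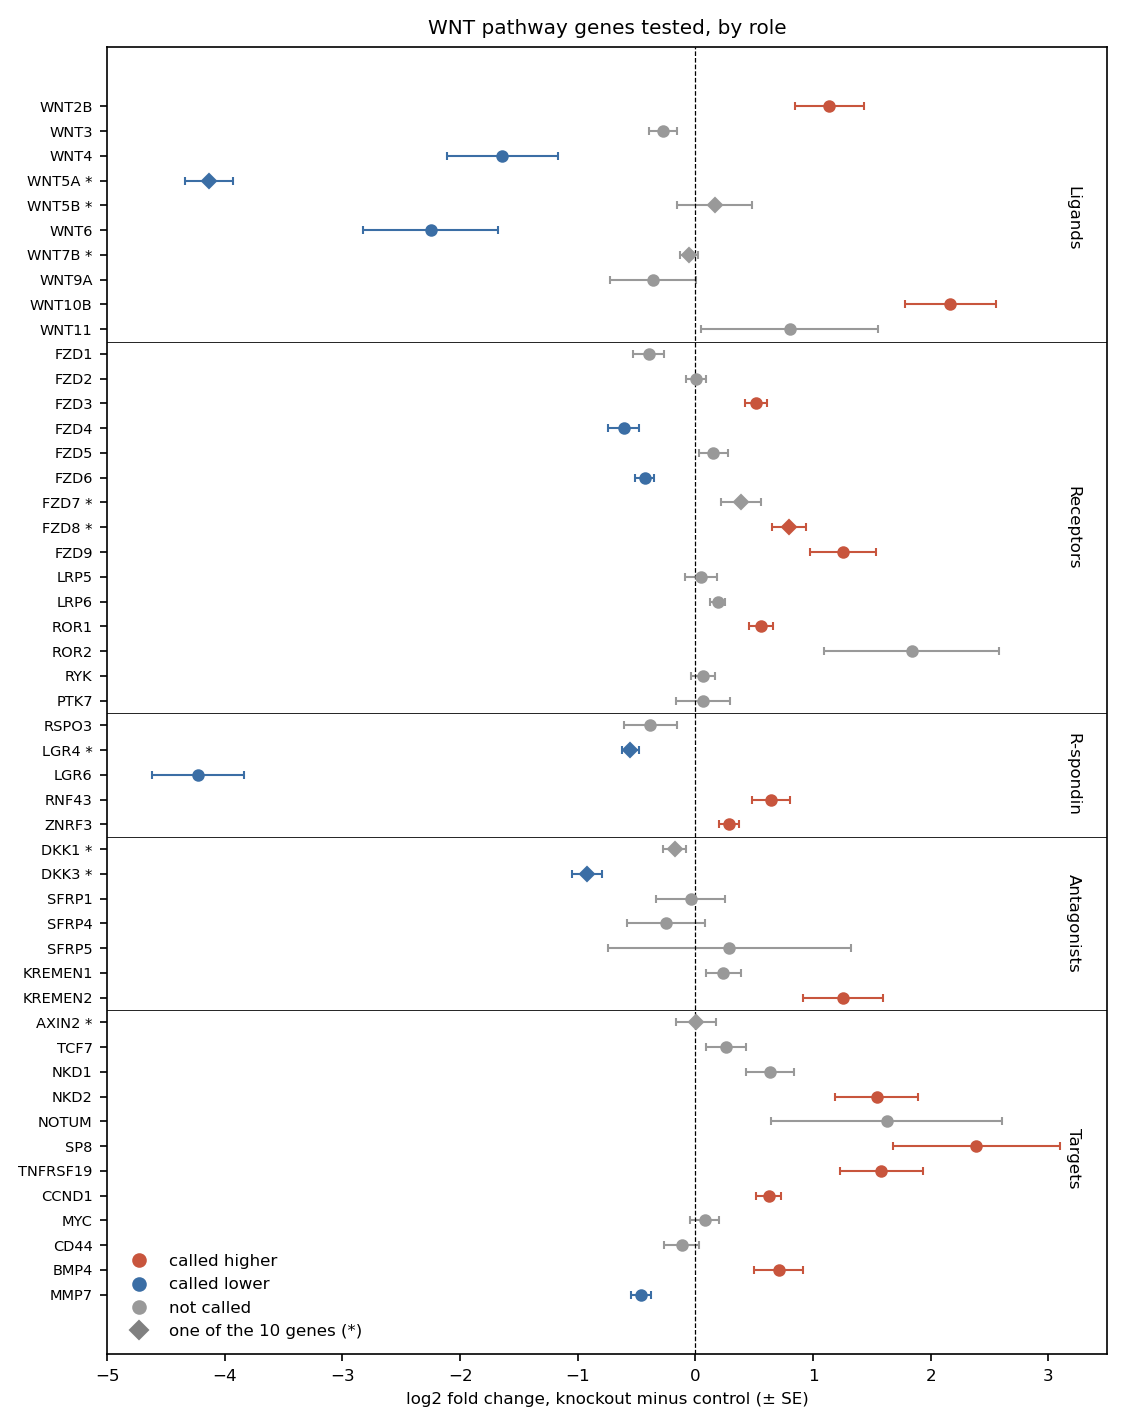
Log2 fold change, knockout minus control, with its standard error (horizontal axis) for tested ligands, receptors, R-spondin module genes, antagonists and targets, with a gene of more than 1 list drawn once. Colour shows whether edgeR called the gene higher, lower or not at all, and diamonds with an asterisk are genes described in full. WNT5A and LGR6 lie near -4, and most other genes lie within 1 of 0.

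Across all pathway lists, 108 genes besides the 10 had a row and 90 were tested, of which 19 were called higher and 16 lower, with a median of 0.07, beside 8.21% and 11.5% of all tested genes. Of those 35 calls, 12 held in each of the 6 fits leaving out 1 library, 7 higher and 5 lower.

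In order of FPKM, the controls ranked DKK1 (102), LGR4 (44.4), WNT7B (17.9), AXIN2 (7.67), FZD7 (4.57), WNT5A (3.10), DKK3 (1.83), FZD8 (1.43), WNT5B (0.176) and LEF1 (0.00994), and no neighbours in this order had overlapping ranges. In the knockouts the first 5 kept their order, with AXIN2 (7.89) and FZD7 (6.16) overlapping. FZD8 (2.54) came next, above DKK3 (0.980). WNT5A (0.180) came below WNT5B (0.204), and the ranges of these 2 overlapped.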

How the data were processed

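RNA-seq of 6 NCI-H1299 libraries was used, grouped by the genotype label. The authors filtered reads with Cutadapt, used HISAT2 for alignment and StringTie for gene levels, per the labels' protocols. Per the submitters' processing notes, HISAT2 was 2.0.4, StringTie 1.3.4d and the build GRCh38. The authors deposited counts and FPKM per gene and library. Strand use is not given in the sources used here. Between 69.9% and 71.0% of the counts from 4 to 10 were even, a range that itself holds more even than odd values. Of counts above 100, 49.5% to 50.1% were even. Single fragments may count more than once, in which case counting errors are larger than the counts alone give.

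Counts were tested with edgeR 4.0.16 (R 4.3.3): filterByExpr (minimum count 10, minimum total 15), TMM, quasi-likelihood fit, Benjamini-Hochberg over 20134 genes, threshold 0.05. FPKM served for levels between genes and for shares, which were compared by a 2-sided exact permutation test over libraries. On simulated counts of this comparison (19276 genes, 200 changed) edgeR recovered 46% of 1.5-fold and 100% of 3-fold changes, and 3.95% of its calls were false. For DESeq2, 19.7% of calls were false. The changed genes were drawn from well-counted genes, far fewer changed than were called here, and no simulated library stood apart. These rates therefore do not extend to calls of faint genes such as WNT10B, WNT2B, WNT4, WNT6, FZD9, KREMEN2 and SP8. Alternatives used limma 3.58.1, DESeq2 1.42.0, other filters and scalings, and each library left out. No 2 libraries of a group were copies (chi-square over its degrees of freedom, lowest pair 12.2). The genes and lists were chosen with earlier results of these data known. Named genes were the 10, IGF2BP3, and in each list up to 4 called genes with the smallest adjusted p, or up to 2 where none was called. Abundant ligands and receptors could be given their level. FZD9, LGR5, CTNNB1, MYC, SFRP1, BMP4, SP8, SYP, FOXA1, FOXA2, MUC1, ITGAM, LYZ and the genes called only in an alternative were added after their values were seen.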

Additional observations from a re-analysis of the deposited data

How the results depend on the processing

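The directions of all 4 called genes and their calls held with no filter, a higher filter, other size factors, quantile normalization, DESeq2, limma-voom, FPKM with either pseudocount and each library left out. A minimum fold of 1.5 left 1 call among the 10 genes (WNT5A), 2 among the other pathway genes and 930 among all genes, against 4, 35 and 3963. The share of calls that were lower was 58.3% with the reported settings and 72.2% with the minimum fold, and ran over the other settings from 49.4% (FPKM plus 0.1) to 64.6% (without control replicate 1). It was 49.7% under quantile normalization, so lower calls are not the majority under every scaling. With control replicate 3 and knockout replicate 1 both left out, an alternative chosen after seeing the data, 6657 genes were called, 6 of the 10 and 52 other pathway genes. Leaving out single libraries gave 2183 to 5338 calls among all genes, 4 to 5 among the 10, and 15 to 42 among other pathway genes, the highest in each case without knockout replicate 1; the cause was not tested. The WNT5A and WNT7B shares moved by -15.2 and 11.6 percentage points when computed from counts. A replicate block, which the labels do not call for, left 4 calls among the 10, 23 among other pathway genes and 3001 in all. Same-numbered libraries did not deviate together (r = -0.0046, -0.072 and -0.058). Depth limited LEF1, with 12 counts in all, and gave WNT5B wide errors.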

Other observations

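Genes of the planar cell polarity and calcium branch, through which WNT5A is known to act, were called in both directions. Of 19 tested, 4 were higher and 5 lower, with a median log2 fold change of 0.11 against 0.01 for all tested genes, of which 8.21% were called higher and 11.5% lower. The counts ran from 2 to 5 in each direction when 1 library was left out. CELSR3, a polarity cadherin, rose from 27.0 ± 1.16 to 47.4 ± 3.98 CPM (SD, n = 3, edgeR adjusted p = 0.00088). PRKCA, a calcium-dependent protein kinase C, rose from 257 ± 7.30 to 405 ± 27.2 CPM (adjusted p = 0.0014). NFATC3, a calcium-responsive transcription factor, fell from 48.0 ± 2.68 to 32.8 ± 1.32 CPM (adjusted p = 0.0028). PRICKLE1, a core polarity protein, fell from 15.2 ± 0.582 to 8.24 ± 1.01 CPM (adjusted p = 0.0035). These 4 were the calls of the list that held in each fit leaving out 1 library.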
